A study of Caenorhabditis elegans with 14 samples.

Results

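The fbxb genes of Caenorhabditis elegans form a large family of F-box genes, and their transcripts were followed here across 2 life stages in daf-19 mutants and controls. Members were all genes with a symbol of the form fbxb- and a number that had a probe set of their own on an Affymetrix array, and each gene was represented by 1 probe set, the one with the highest mean over the 14 arrays. This gave 95 fbxb genes among 17118 genes represented on the array. A further 2 probe sets match a pair of fbxb genes each and were kept out of the counts. All 95 members were found under the same symbol in the RefSeq gene table (assembly WBcel235), which holds 113 fbxb genes and marks 5 of the 95 as pseudogenes. No filter on low signal was used in the fit that gave the contrasts, so every member entered that fit.

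RNA came from whole animals. The adult mutants (3 arrays) and the L1 mutants (4 arrays, L1 being the first larval stage) carried mutations in daf-19 and daf-12. The adult controls (3 arrays) and the L1 controls (4 arrays) carried the daf-12 mutation alone. No group was wild type, and the genotypes differed by daf-19 on top of the shared daf-12 mutation. Which daf-19 allele was used is not stated in the labels. They call the adults young in the titles and place them 50 hours past the L4 stage in the protocol. The daf-19 gene encodes an RFX transcription factor known for its control of ciliary genes in sensory neurons, and the series asks what it controls at different stages of life.

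F-box proteins are the substrate receptors of SCF ubiquitin ligases. In such a ligase the cullin CUL-1 is the scaffold, the RING protein RBX-1 recruits the ubiquitin-conjugating enzyme, and a Skp1-related adaptor (an SKR protein in the worm) holds the F-box protein, which in turn holds the protein to be ubiquitinated. Nematodes have greatly expanded F-box families, fbxa, fbxb and fbxc among them in C. elegans, and fbxb proteins pair the F-box with an F-box associated domain thought to bind substrates. The substrates of most of them are unknown, so no individual role is given for the members named here.

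The arrays matched their labelled stages in the adult genes and in the median of the L1 genes. The median signal of 6 adult genes (col-19 and yolk protein genes) was 13.86 to 14.03 (log2) on the adult arrays and 3.93 to 4.42 on the L1 arrays, and that of the L1 genes lin-14, lin-28 and hbl-1 was 9.17 to 9.51 on the L1 arrays. On the adult arrays the median of these L1 genes was 7.53, 7.73 and 7.69 in mutants 1, 2 and 3, against 7.02, 8.49 and 8.12 in controls 1, 2 and 3, so that controls 2 and 3 were highest. On the deposited scale, 2 of the 3 L1 genes were called lower and 1 higher in adults than at L1 in either genotype (limma). Of all genes, 74.3% were called higher and 15.4% lower in mutants, and 74% and 15.8% in controls. Of the 2 daf-19 probe sets, the dimmer was 0.64 (log2) lower in adult mutants than in adult controls (adjusted p = 0.0163, limma) and 0.69 lower in L1 mutants than in L1 controls (adjusted p = 0.00281). The brighter was lower by 0.56 (adjusted p = 0.105) and 0.70 (adjusted p = 0.0125). Among the adult arrays, controls 2 and 3 stood apart also over all genes. Their deviations from the adult mean correlated with each other at r = 0.60 across genes, whereas control 1 correlated with them at -0.21 and -0.42 and with mutant 1 at 0.15; genes are not independent replicates. The adult counts, the called genes and the gene lists are therefore also given without controls 2 and 3, and the part of the L1 genes in the fbxb difference was not tested. In those fits the adult control group is 1 array, assumed to vary like the other groups. The labels call the replicates biological.

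Most of the fbxb family read near the bottom of the array. On the adult arrays 44.2%, 47.4% and 48.4% of the 95 genes lay above the array's own lower quartile in mutants 1, 2 and 3, against 49.5%, 63.2% and 61.1% in controls 1, 2 and 3; a set of genes spread evenly over an array would have 75% there. The mutants lay close together, as did controls 2 and 3, and control 1 lay next to the mutants. At L1 the share lay between 24.2% and 27.4% on the mutant arrays, which falls within the 22.1% to 29.5% of the control arrays. By gene, 42 members were above the lower quartile on all 6 adult arrays, 20 on some and 33 on none. At L1, 15 were above it on all 8 arrays, 20 on some and 60 on none. No detection calls were used here, and a signal below the lower quartile may hold little information on the transcript.

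**Figure D1:**
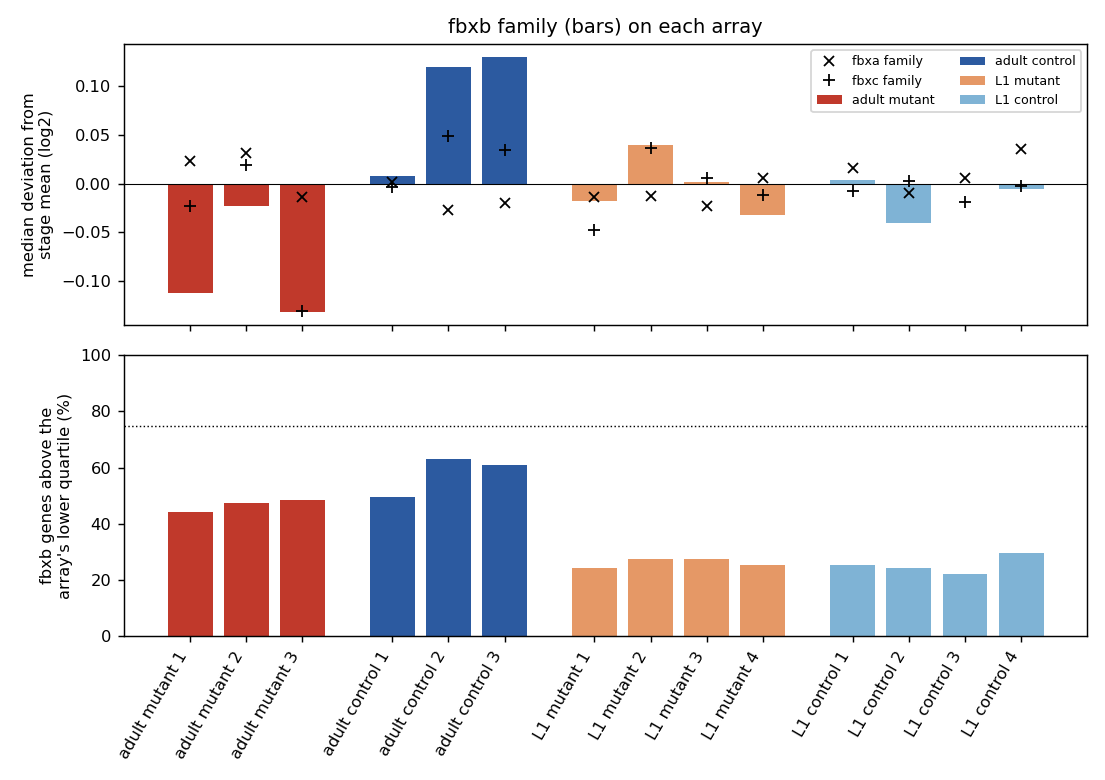
Upper panel: for each array (x axis), the bar is the median over 95 fbxb genes of the log2 signal minus that gene's mean over the arrays of the same stage, and the marks give the same for the fbxa and fbxc families. Lower panel: percent of the fbxb genes above the array's lower quartile, with a dotted line at 75%. The bars of adult controls 2 and 3 stand highest in both panels, and the L1 bars lie near 0 in the upper panel.

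A few members stood well above that floor. Only fbxb-41, fbxb-15 and fbxb-67 were above the array median on all 6 adult arrays, and fbxb-63 alone was so on all 8 L1 arrays. Another 5 members (fbxb-54, fbxb-63, fbxb-96, fbxb-100 and fbxb-103) passed the median on at least 1 adult array. At L1 the median was passed on some arrays by fbxb-57, fbxb-100 and fbxb-108. The dimmest probe sets over all arrays were those of fbxb-112 (3.25) and fbxb-16 (3.26). These are signals of different probe sets, which differ in brightness per transcript, so no order of transcript abundance between genes is drawn from them.

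In adults, 8 fbxb genes were lower in daf-19 mutants and none was higher. With limma and Benjamini-Hochberg adjustment over all 22548 probe sets tested, 8 of 95 passed the threshold of 0.05 downward, while 0.695% of all genes were called lower and 0.368% higher. At an unadjusted p under 0.05 there were 41 members lower and 0 higher, while 4.93% of all genes were lower and 3.16% higher by that measure. The difference (mutant minus control) was negative for 78 of the 95 genes, or 82.1%, against 40.4% of all genes. Its median was -0.21 (log2) over the family, with an interquartile range of -0.34 to -0.02, and 0.03 over all genes. In 33 of the 95 genes all 3 mutant arrays lay below all 3 control arrays, against 5.84% of all genes, and in 3 they lay above, against 7.9% of all genes. In whole worms, fewer cells of a type and less RNA per cell cannot be told apart.

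These counts depended on adult controls 2 and 3. Both stood above the other 4 adult arrays in 40 of 95 fbxb genes (42.1%), against 12.1% of all genes. With both left out, and only control 1 remaining on that side, no fbxb gene was called by limma (13 were lower at an unadjusted p under 0.05), the family median was -0.08 against 0.00 over all genes, and 69 of 95 differences were negative (72.6%, against 48.5% of all genes). Leaving out adult control 2 or adult mutant 1 alone also ended all 8 calls, with 32 and 34 members lower at an unadjusted p under 0.05. Without control 3 there were 2 calls, without mutant 2 also 2, and without mutant 3 only 1. Without control 1, in contrast, 20 members were called lower (2.72% of all genes), and with arrays weighted by their spread 43 were (5.46% of all genes). Control 1 by itself lay above all 3 mutants in 42 fbxb genes (44.2%), against 24.8% of all genes. The array scores in the upper panel of the plot of family scores followed the same order. They were -0.11, -0.02 and -0.13 in mutants 1, 2 and 3, against 0.01, 0.12 and 0.13 in controls 1, 2 and 3.

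**Figure D2:**
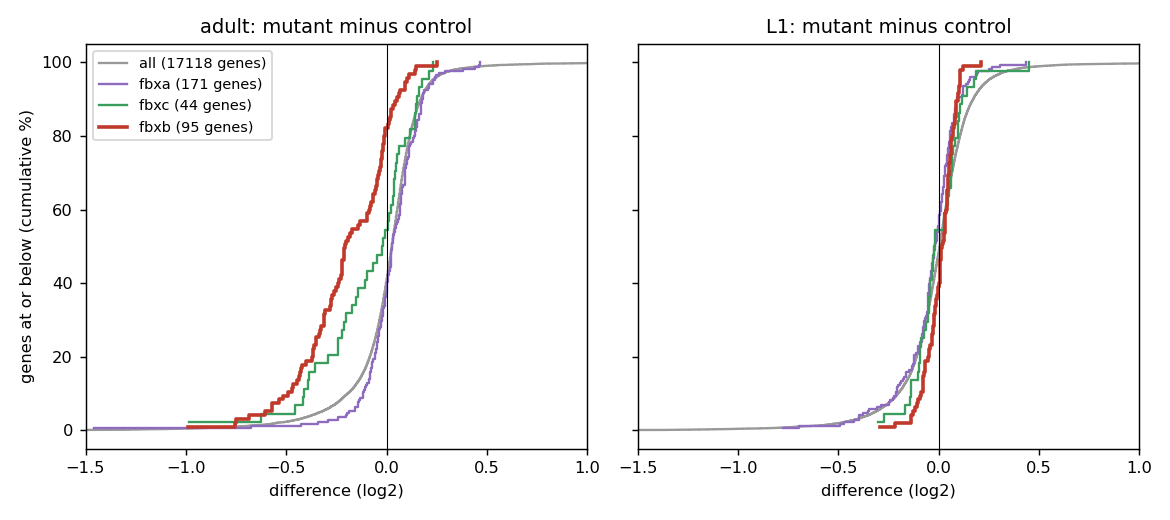
Cumulative percent of genes (y axis) at or below each log2 difference, mutant minus control (x axis), in adults (left) and at L1 (right), for the fbxb family, fbxa, fbxc and all genes. In adults the fbxb curve lies to the left of the others over most of its length and crosses 0 at 82.1%; at L1 it runs close to the curve of all genes.

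Among the 8 called genes, a first group of 4 differed about as much from control 1 as from the other controls. The largest called difference was in fbxb-54, with 5.26, 5.92 and 5.72 in adult mutants and 6.42, 6.55 and 6.18 in adult controls (log2 signal). Every control array was above every mutant array, and the difference was -0.75 (SE 0.15, adjusted p = 0.0232, limma), a fold of 1.68. Against control 1 alone it was -0.79. Next, fbxb-42 had 4.78, 4.68 and 4.85 in mutants and 5.19, 5.21 and 5.22 in controls. Its controls had an SD of 0.02 (n = 3), and the difference was -0.44 (SE 0.08, adjusted p = 0.0158, limma), or -0.42 against control 1 alone.

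The other members of this group were fbxb-85 and fbxb-96. For fbxb-85 the signals were 4.20, 4.16 and 4.21 in mutants and 4.68, 4.67 and 4.62 in controls. All 3 mutant arrays fell below their arrays' lower quartile and all 3 control arrays lay above it, with a difference of -0.47 (SE 0.09, adjusted p = 0.0163, limma). For fbxb-96, which was named after its values were seen, mutants had 5.49, 5.64 and 5.65 and controls 5.96, 5.98 and 6.04. The groups did not overlap, and the difference was -0.40 (SE 0.08, adjusted p = 0.0317, limma). Against control 1 alone the differences of fbxb-85 and fbxb-96 were -0.49 and -0.37.

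In the remaining 4 called genes, control 1 lay nearer to the mutants than controls 2 and 3 did. For fbxb-104 the mutants had 4.30, 4.32 and 4.32 and the controls 4.50, 5.09 and 5.17. The mutant arrays were nearly equal and below the lower quartile, control 1 was too, and the difference of -0.61 (SE 0.14, adjusted p = 0.0499, limma) was -0.19 against control 1 alone. For fbxb-37 the mutants had 5.13, 4.98 and 5.0 and the controls 5.32, 5.77 and 5.73. The difference was -0.57 (SE 0.11, adjusted p = 0.0238, limma), or -0.28 against control 1 alone.

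The same order was seen in fbxb-35, with 4.00, 4.06 and 4.07 in mutants and 4.28, 4.66 and 4.66 in controls. The groups did not overlap, and the difference was -0.49 (SE 0.10, adjusted p = 0.0284, limma), or -0.24 against control 1 alone. In fbxb-40 the mutants had 4.23, 4.49 and 4.17 and the controls 4.67, 4.97 and 4.86. The difference was -0.54 (SE 0.12, adjusted p = 0.0435, limma), or -0.37 against control 1 alone. With control 1 as the only adult control, none of the 8 passed, at adjusted p between 0.301 and 1. That fit has fewer arrays, and for fbxb-54, fbxb-85 and fbxb-42 the difference itself was close to that from all controls.

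**Figure D3:**
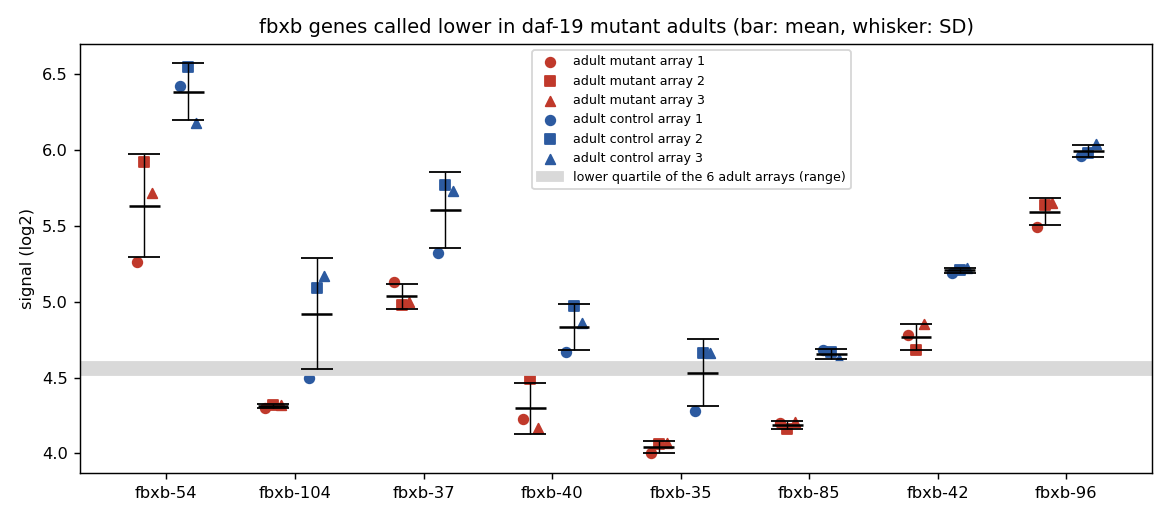
Log2 signal (y axis) of the 8 fbxb genes called lower in adult mutants (x axis) on each adult array, mutants left and controls right within a gene; bars are means and whiskers SDs (n = 3), and the grey band is the range of the arrays' lower quartiles (4.52 to 4.60). No gene's groups overlap, and for fbxb-104, fbxb-37, fbxb-40 and fbxb-35 control 1 (circle) is the lowest control.

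The threshold cut through a continuous range of differences. Just outside it stood fbxb-3, at -0.52 (adjusted p = 0.0513), fbxb-17, at -0.37 (adjusted p = 0.0517), and fbxb-63, at -0.57 (adjusted p = 0.0522, all limma). The members at the ends of the range are named here after their values were seen, and the largest difference of all was not called. For fbxb-84 the mutants had 3.71, 4.06 and 4.06 and the controls 4.30, 5.68 and 4.82, so that control 2 stood far above the other arrays, and the difference was -0.99 (SE 0.23, adjusted p = 0.0660, limma). The next largest uncalled differences were those of fbxb-66 and fbxb-41. For fbxb-66 the mutants had 4.40, 4.73 and 4.42 and the controls 4.65, 5.60 and 5.57, so that control 1 lay among the mutants, and the difference was -0.76 (SE 0.19, adjusted p = 0.103, limma). For fbxb-41, one of the 3 members above the array median on every adult array, the mutants had 5.98, 6.70 and 6.46 and the controls 6.83, 7.26 and 7.11. The groups did not overlap, but mutant 1 was far below the other mutants, and the difference was -0.69 (SE 0.18, adjusted p = 0.125, limma). Another of those members, fbxb-15, had 6.06, 6.47 and 6.13 in mutants and 6.23, 6.83 and 6.87 in controls, with overlapping groups and a difference of -0.42 (adjusted p = 0.325). At the other end, the largest positive difference was 0.25 (SE 0.14, adjusted p = 0.783, limma) in fbxb-67, with 6.43, 6.50 and 6.28 in mutants and 6.27, 6.07 and 6.11 in controls.

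Within the family, the adult difference had a median of -0.21 in the 48 members with the higher mean over all arrays and -0.13 in the other 47, with 4 calls in each. Probe sets of the _s_at type, which can match more than 1 transcript, made up 12 of the 95, of which 4 were called (fbxb-54, fbxb-96, fbxb-40 and fbxb-104), with a median of -0.41. The other 83 had 4 calls and a median of -0.17. The 5 pseudogenes had a median of 0.01 and 0 calls, against -0.21 and 8 calls for the 90 protein-coding members. The differences between these classes were not tested. An _s_at set can carry the signal of a related gene, so these 4 calls cannot be given to 1 gene with certainty.

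Probe sets outside the count pointed the same way without passing the threshold. The set shared by fbxb-44 and fbxb-43 had an adult difference of -0.45 (adjusted p = 0.0702, limma), and that shared by fbxb-33 and fbxb-31 one of -0.24 (adjusted p = 0.650). Only fbxb-74 had 2 sets of its own, at -0.08 for the brighter (adjusted p = 0.999) and -0.40 for the dimmer (adjusted p = 0.148).

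No unbroken run of fbxb genes held more than 1 called gene. In WBcel235, 17 runs of fbxb genes with no other protein-coding gene or pseudogene between them held at least 2 measured members, 47 members in all. In 8 of the 17 runs every adult difference was negative, where 82.1% of the 95 members had a negative difference. The 8 called genes lay in 8 different runs or single positions. Distances between these were not examined, so called genes may still lie near each other. In the run of fbxb-52, fbxb-51, fbxb-54 and fbxb-50, for example, the difference of -0.75 in fbxb-54 stood beside 0.02 in fbxb-51 and 0.07 in fbxb-52. The median range of differences within a run was 0.33, against a median SE of 0.11 for a single member.

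At L1, no fbxb gene was called in either direction. With limma, 0 of 95 passed at an adjusted p under 0.05, against 1.22% of all genes, and at an unadjusted p under 0.05 there were 2 members lower and 0 higher, against 6.23% of all genes lower and 4.29% higher. All 4 mutant arrays lay below all 4 control arrays in 2 members (2.66% of all genes) and above them in 0 (1.9% of all genes). The median difference, mutant minus control, was 0.02 over the family and 0.01 over all genes. The smallest p belonged to fbxb-115, with 3.04, 3.38, 3.22 and 2.99 in mutants and 3.26, 3.42, 3.67 and 3.45 in controls. The groups overlapped, and the difference was -0.29 (SE 0.12, adjusted p = 0.386, limma). It was followed by fbxb-90, in which the mutants (2.88 to 3.06) lay below all controls (3.10 to 3.29), at -0.22 (adjusted p = 0.472), and fbxb-99 at -0.13 (adjusted p = 0.574). All 3 probe sets lay below the lower quartile on every L1 array, and 60 of the 95 did so, which limits what could be seen at this stage. The Gapdh 3' minus 5' difference, a sign of RNA quality, was 3.83 to 4.12 (log2) on L1 mutant arrays and 3.16 to 3.83 on L1 control arrays, and its part in the L1 values was not tested beyond a fit with it as a covariate, which also called 0 members. The 8 genes called in adults differed by between -0.10 (fbxb-54) and 0.11 (fbxb-35) at L1.

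The adult and L1 differences were compared directly through the interaction (adult difference minus L1 difference). In 3 members it passed the threshold with limma, all downward, whereas 0.976% of all genes were called and 0.45% were called downward. At an unadjusted p under 0.05 there were 33 members, all downward, whereas 9.41% of all genes passed and 4.5% passed downward. In fbxb-63 the adult mutants had 5.75, 5.76 and 5.62 and the adult controls 5.94, 6.45 and 6.45, while the L1 mutants had 5.42, 5.10, 5.36 and 5.40 and the L1 controls 5.07, 5.06, 5.10 and 5.20. The mutants were thus below the controls in adults and mostly above them at L1, by 0.21 on average (adjusted p = 0.598), and the interaction was -0.78 (SE 0.17, adjusted p = 0.0464, limma). The others were fbxb-42 at -0.49 (adjusted p = 0.0464) and fbxb-85 at -0.52 (adjusted p = 0.0466). The probe sets of fbxb-42 and fbxb-85 lay below the lower quartile on every L1 array, which limits what L1 difference could be seen in them. With the replicate number as a block, which pairs the L1 arrays, fbxb-63 passed (adjusted p = 0.0424, limma), whereas fbxb-42 (0.0839) and fbxb-85 (0.0559) did not. Without adult controls 2 and 3 none of the 3 passed, and the interaction of fbxb-63 was -0.44 (adjusted p = 0.617). With the Gapdh covariate none of them passed, at adjusted p of 0.174 for fbxb-63, 0.116 for fbxb-42 and 0.192 for fbxb-85. They also did not pass when any 1 of the L1 controls, the adult mutants, adult controls 2 and 3 or L1 mutant 4 was left out (limma), with 22 to 35 members downward at an unadjusted p under 0.05, while leaving out adult control 1 gave 10 calls. The family's median interaction was -0.17, against 0.02 over all genes.

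Between stages the deposited values cannot be compared directly, since array medians were 5.91 to 6.02 in adults and 4.72 to 4.76 at L1, and the median gene was 0.87 (log2) higher in adult than in L1 mutants and 0.85 higher in adult than in L1 controls. On that scale 93 of 95 members were called higher in adult mutants than in L1 mutants, against 74.3% of all genes, and 95 of 95 were called higher in adult controls than in L1 controls, against 74% of all genes. The exceptions in mutants were fbxb-11 and fbxb-88, named after their values were seen. The family medians were 1.04 in mutants and 1.24 in controls. After a joint quantile normalization of all arrays, which put the median gene at -0.06 in either genotype, 51 members were called higher in adult than in L1 mutants and 7 lower, with a median of 0.26, whereas 34.4% of all genes were higher and 40.3% lower. In controls 63 were higher and 5 lower, with a median of 0.39, whereas 34.5% of all genes were higher and 40.3% lower. The stages also differed in the Gapdh 3' minus 5' difference, which was 3.16 to 4.12 (log2) on L1 arrays and -0.54 to -0.36 on adult arrays. Its part cannot be told apart from stage, whether by deposited values, joint scaling or ranks.

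Ranks within each array, which need no common scale, were also higher in adults for most of the family. The median percentile of an fbxb gene among all tested probe sets was 22.8 in adult mutants against 13.0 in L1 mutants, and 29.6 in adult controls against 13.6 in L1 controls. It was higher in adults for 75 of 95 members in mutants and 79 of 95 in controls, against 46.9% and 46.8% of all genes. The stage differences that were largest on the deposited scale were 2.92 for fbxb-67, 2.34 for fbxb-41, 2.32 for fbxb-15, 2.18 for fbxb-54, 2.16 for fbxb-103 and 1.95 for fbxb-17 in mutants. In controls they were 2.92 for fbxb-41, 2.83 for fbxb-54, 2.78 for fbxb-15, 2.64 for fbxb-67, 2.49 for fbxb-37 and 2.40 for fbxb-103. Each of these values exceeded that of the median gene by more than 1 log2 unit. For fbxb-67 the adult mutants had 6.43, 6.50 and 6.28, against 3.47, 3.78, 3.34 and 3.35 in L1 mutants. Its percentile was 13.4 in L1 mutants, near the family median of 13.0, and it lay above the array median in adults. The opposite was seen for fbxb-11, whose percentile changed by -20.7 points in adult mutants and -14.8 in adult controls relative to L1. Its deposited signals were 4.33, 4.20 and 4.38 in adult mutants, against 4.45, 4.17, 4.05 and 4.15 in L1 mutants, a stage difference of 0.10 (not called), against 0.87 for the median gene. Likewise, fbxb-108 was lower in adults in either genotype under the joint scaling.

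**Figure D4:**
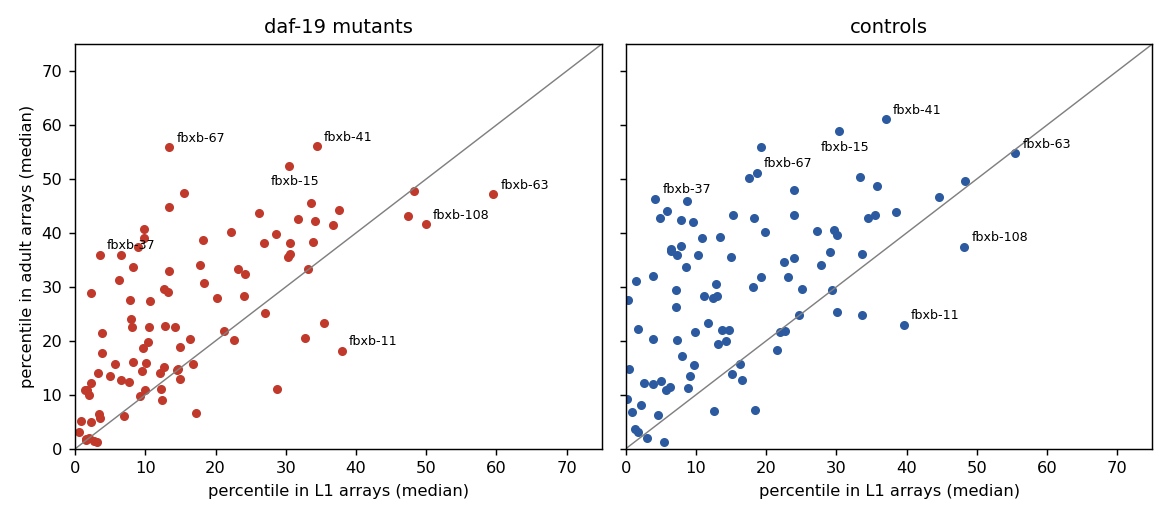
Each point is 1 of the 95 fbxb genes, placed by its median percentile among all probe sets in L1 arrays (x axis) and in adult arrays (y axis), in daf-19 mutants (left) and controls (right); the line marks equal percentiles. Of the points, 75 lie above the line in mutants and 79 in controls, and fbxb-11, fbxb-108 and fbxb-63 lie below it in both panels.

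Genes of other tissues were read on the same adult arrays. Of 41 early embryo genes (the sdz and vet genes, pes-10 and others), 9 were called lower and 1 higher in adult mutants, against 0.695% and 0.368% of all genes. Without controls 2 and 3 there were 2 lower (pes-10 and sdz-30) and 1 higher (sdz-24). With all controls, pes-10, a gene transcribed in the early embryo, was lower by 1.04 (adjusted p = 0.000555, limma), and sdz-24 was higher by 1.78 (adjusted p = 0.00144). The linear signal summed over that list came to 3341, 3631 and 3534 in mutants 1, 2 and 3, against 3588, 4030 and 3961 in controls 1, 2 and 3. On L1 arrays it was about as high, at 2436 to 3642 in mutants and 3244 to 4580 in controls. The sum can therefore not be read as an amount of embryos. The genes of the list had a median level between 5.0 and 5.20 (log2) on mutant arrays, below the 5.48 to 5.74 of control arrays. By sum the list was highest in controls 2 and 3. Its median deviation from the adult mean, the measure used for the fbxb score, was -0.07, 0.01 and -0.07 in mutants 1, 2 and 3, against 0.04, 0.05 and 0.03 in controls 1, 2 and 3. Among the 9 genes called lower, control 1 was the lowest control in vet-6, sdz-28, sdz-14, vet-1, sdz-30 and sdz-25. It was level with or above another control in vet-2, sdz-26 and pes-10. The part of embryos in the fbxb difference was not tested. Of 13 oocyte and germline genes 0 were called by limma (0 lower and 0 higher at an unadjusted p under 0.05), and their signals summed to between 92173 and 97587 in mutants, against 95801, 82170 and 79732 in controls 1, 2 and 3. Of 64 sperm genes 0 were called by limma in adults (0 lower and 1 higher at an unadjusted p under 0.05), with overlapping sums, between 6532 and 7199 on mutant arrays and between 6430 and 7170 on control arrays. The difference between the 3' and 5' probe sets for Gapdh was -0.54 to -0.39 in adult mutants and -0.44 to -0.36 in adult controls, so the groups overlapped.

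The fbxa and fbxc families were read from the same fit. Of 171 fbxa genes 1 was lower (fbxa-72) and 1 higher (fbxa-191) in adult mutants, where 0.695% of all genes were lower and 0.368% higher. Of the fbxa differences 37.4% were negative, near the 40.4% of all genes, with a median of 0.03. Of 44 fbxc genes 2 were lower (fbxc-28 by 0.99 and fbxc-25 by 0.46) and 0 higher, 54.5% were negative and the median was -0.02. At an unadjusted p under 0.05 (limma), 9 fbxc genes (20.5%) were lower and 1 higher, against 4.93% and 3.16% of all genes. All mutant arrays lay below all control arrays in 7 fbxc genes (15.9%) and above them in 2, against 5.84% and 7.9% of all genes. Without controls 2 and 3 the calls were 1 in fbxa (fbxa-72, lower) and 0 in fbxc, and the medians 0.01 and -0.04. The fbxb median of -0.21 was the lowest of the 3 families, and the difference between families was not tested.

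Among the proteins with which F-box proteins work, some adaptors were lower in adult mutants and the core of the ligase was not called. Of 39 genes for SCF components and regulators, 4 were called lower and 0 higher in adult mutants, where 0.695% of all genes were lower and 0.368% higher, and all 4 encode Skp1-related proteins. Without controls 2 and 3, 1 of the 39 was called, skr-7. For skr-7 the mutants had 8.42, 8.49 and 8.65 and the controls 9.27, 9.61 and 9.63. The groups were far apart and the difference was -0.98 (SE 0.11, adjusted p = 0.000217, limma). Without controls 2 and 3 it was -0.75. For skr-9 the mutants had 8.04, 8.82 and 8.84 and the controls 9.41, 9.87 and 9.65. Mutant 1 was the lowest array, and the difference was -1.08 (SE 0.17, adjusted p = 0.00587, limma).

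The other 2 called adaptors were skr-8 and skr-10. In skr-8 the mutants had 9.10, 9.37 and 9.30 and the controls 9.86, 10.48 and 10.52. The difference was -1.03 (SE 0.18, adjusted p = 0.0102, limma), and a second probe set of skr-8 gave -1.11 (adjusted p = 0.00144). In skr-10 the mutants had 7.65, 8.0 and 7.87 and the controls 8.40, 8.69 and 8.73, with a difference of -0.77 (SE 0.11, adjusted p = 0.00259, limma). In both genes the groups did not overlap and control 1 was the lowest control. Against control 1 alone, the differences of skr-8, skr-9 and skr-10 were -0.60, -0.84 and -0.56 and did not pass (adjusted p = 0.697, 0.380 and 0.273, limma). These 4 genes are close paralogs, and the sets of skr-8 and skr-9 are of the _x_at type, so that signal may be shared among them.

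Some other Skp1-related genes had large differences that were not called, and 2 are named here after their values were seen. These were skr-21, at -1.15 (SE 0.33, adjusted p = 0.162, limma), and skr-13, at -0.72 (SE 0.17, adjusted p = 0.0689, limma). For skr-21 the mutants had 6.50, 6.45 and 6.68 and the controls 6.65, 8.12 and 8.31, so that control 1 lay among the mutants. For skr-13, also an _x_at set, the mutants had 9.30, 9.36 and 9.22 and the controls 9.63, 10.17 and 10.25.

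The general adaptors and the scaffold gave other values. The differences in adults were -0.01 for skr-1 and 0.02 for skr-2, the main Skp1 homologs, -0.10 for cul-1 and 0.07 for rbx-1, all at an adjusted p of 0.999 (limma). At L1, 1 of the 39 genes was called, skr-4, which was lower in mutants by 0.97 (adjusted p = 0.0144, limma), where 1.22% of all genes were called. That call ended with the Gapdh covariate (adjusted p = 0.210), in a fit of the L1 arrays alone (0.126) and without L1 control 4 (0.0558). The interaction was called for skr-9, skr-7 and skr-10, at -1.11, -0.97 and -0.83, where 0.45% of all genes were called downward. The 2 sets of skr-8 disagreed. The set used for the gene gave -0.94 (adjusted p = 0.0944, limma) and the second set -1.11 (adjusted p = 0.0141, limma). On the L1 arrays skr-7 (2.85 to 3.08) and skr-10 (3.24 to 3.49) lay below the lower quartiles of 3.71 to 3.76. This limits what L1 difference could be seen in them. Without adult controls 2 and 3 none of the 3 passed (adjusted p = 0.455 for skr-9, 0.0942 for skr-7 and 0.262 for skr-10). The call of skr-9 also ended in 9 of the 14 fits that leave out 1 array and with the Gapdh covariate, and that of skr-10 without adult control 2 and with the Gapdh covariate.

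**Figure D5:**
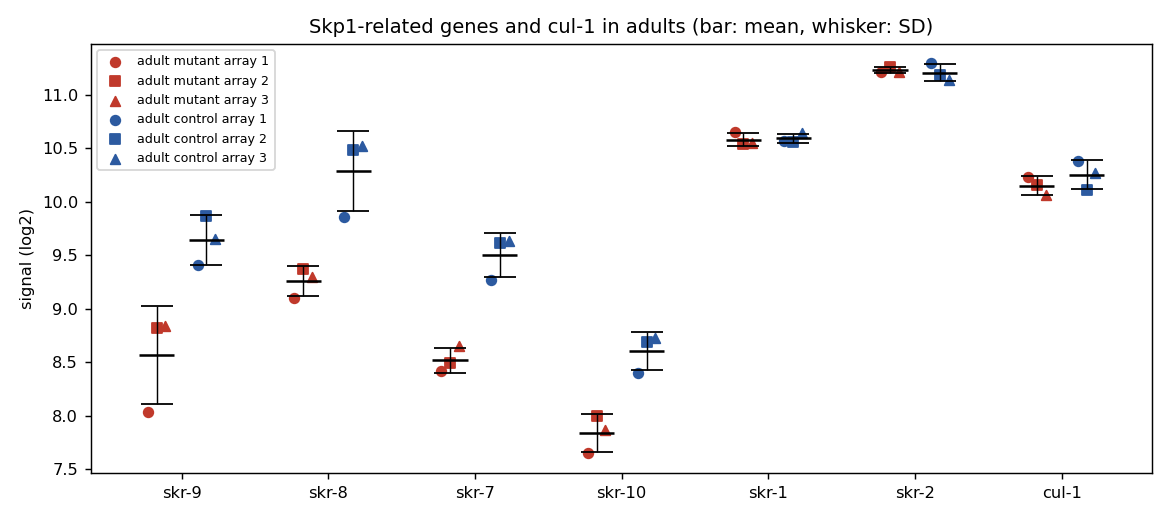
Log2 signal (y axis) of 6 Skp1-related genes and cul-1 (x axis) on each adult array, mutants left and controls right within a gene; bars are means and whiskers SDs (n = 3). The mutants lie below all controls for skr-9, skr-8, skr-7 and skr-10, and the groups overlap for skr-1, skr-2 and cul-1.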

How the data were processed

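Expression was measured on 14 Affymetrix arrays from whole worms, with biotin-labelled cRNA made from 6 ug of RNA, per the labels' protocols. The authors deposited 1 log2 signal per probe set and array; that the scale is log2 was read from the range of the values. How they corrected background, summarised probes and normalized is not given in the sources used here. Quantiles agree among arrays of 1 stage but differ between the stages, which may therefore have been scaled apart.

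Of 22625 probe sets, 77 control sets were left out and 22548 tested. Gene symbols came from the platform's annotation, which gave 20766 sets 1 gene, 887 several and 895 none. The RefSeq table (WBcel235) served for names and neighbours only. One limma 3.58.1 fit (R 4.3.3, lmFit and eBayes) with 4 group means over all arrays gave every contrast, with two-sided p-values, Benjamini-Hochberg adjustment over all tested sets within a contrast and a threshold of 0.05. Precision is limited by the number of arrays, and the median SE of an fbxb difference was 0.11 (log2) in adults and 0.09 at L1. The fits were tested on simulated data.

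The members and lists were chosen with earlier results of these data known, so no list was tested as a set. Named genes were, for each contrast, up to 6 called members each way by size or, with none called, the 3 with the smallest p, the 6 brightest members of each stage and the 2 dimmest over all arrays, members whose probe sets disagree, and up to 4 called SCF genes a contrast. Replicate numbers come from the sample titles. Same-numbered L1 mutant and control arrays deviated together (r = 0.42, 0.32, 0.19 and 0.24 across genes), so the numbers were taken as pairs. L1 mutant 3 correlated almost as well with L1 control 2 (r = 0.18). With the number as a block the L1 count was also 0. In adults r was 0.44, 0.11 and 0.04, so those numbers were not taken as pairs. Alternatives were a replicate block, a Gapdh 3'/5' covariate, array weights, a trended robust fit, 2 quantile normalizations, a fit per stage, sets of the plain type alone, a filter on dim sets and leaving out arrays.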

Additional observations from a re-analysis of the deposited data

Results flagged for a closer look

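Among 52 groups of 4 arrays examined for a single array far from the rest, 2 had one, where chance gives about 1 in 20. The L1 controls were high for fbxb-10 on array 1 (4.26) and low for fbxb-11 on the same array (3.99).

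In 3 fbxb genes limma's interaction test called a difference between the adult and the L1 effect of the daf-19 mutation. The adult difference minus the L1 difference was -0.78 for fbxb-63, -0.49 for fbxb-42 and -0.52 for fbxb-85. Among the Skp1-related genes it was -1.11 for skr-9, -0.97 for skr-7 and -0.83 for skr-10. The probe sets of fbxb-42, fbxb-85, skr-7 and skr-10 lay below the lower quartile on every L1 array, so little of an L1 effect could be seen in them. Leaving out 1 array at a time ended the call in 12 of 14 fits for fbxb-63 and fbxb-42, 13 for fbxb-85, 9 for skr-9, 1 for skr-10 and 0 for skr-7. Without adult controls 2 and 3 none of the 6 passed, at adjusted p between 0.0942 and 0.617.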

How the results depend on the processing

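The adult result rests on few arrays. Against 8 members called in adults, there were 4 with the Gapdh 3'/5' covariate, 44 with array weights (43 lower and 1 higher, with 5.46% of all genes lower), 1 after joint quantile normalization, 1 in a fit of the adult arrays alone, 4 among the 83 plain probe sets and 0 without adult controls 2 and 3, an alternative chosen after seeing the data. Leaving out 1 array at a time gave 0 to 20 calls. The family median stayed between -0.23 and -0.17 with any 1 array left out and was -0.08 without controls 2 and 3. The fit with the replicate number as a block called 12, but the adult numbers were not taken as pairs. Mutant 1 correlated best with control 1 (r = 0.44), but mutant 2 with control 3 (r = 0.33) and mutant 3 with control 2 (r = 0.29). The interaction count of 3 became 0 with the Gapdh covariate (limma, 22 downward at an unadjusted p under 0.05), 20 with array weights, 1 after joint quantile normalization, 5 with the trended robust fit and 0 without controls 2 and 3, where the single control array was assumed to vary like the other groups. With the replicate block there were 4, without fbxb-42 and fbxb-85, which also missed the threshold after either quantile normalization. The count ran between 0 and 10 with 1 array left out (10 without control 1). At L1 the count was 0 in every alternative run, and the median was -0.013 with the Gapdh covariate. For the stage differences, joint quantile normalization gave 58 called and a median of 0.26 in mutants, and 68 called and a median of 0.39 in controls, and the control median was 1.17 without controls 2 and 3. With 1 array left out the stage counts stayed at 93 in mutants and 95 in controls. The causes of these changes were not tested. For single named genes, 630 of 781 alternative values kept direction and side of the threshold, 151 kept the direction but missed the threshold, and 0 reversed. The named stage differences and the uncalled L1 genes kept their side in every fit, so all 151 fell among called genotype and interaction values. Leaving out 1 array ended the adult call in 3 (fbxb-54) to 13 (fbxb-104) of 14 fits among the 8 called fbxb genes. With the filter on dim probe sets no fbxb gene remained, so it gave no value. Signals near the lower quartile limit what the arrays can show for most of the family.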
